A study of Mus musculus with 12 samples.

Results

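The genes described here encode 40 enzymes and readers of histone acetylation and methylation, and each locus was taken as the RefSeq extent of the gene on mm10 with 10 kb added on each side. They are 40 of 21883 protein-coding genes: 9 acetyltransferases, 14 deacetylases, 6 methyltransferases of histone H3 lysine 36, 5 demethylases, 4 members of the MLL family and 2 bromodomain readers. All peaks of H3K36ac (acetylation of lysine 36 on histone H3) that overlapped these loci by 1 bp or more were collected from 6 chromatin immunoprecipitation libraries of mouse liver tumour. There were 3 libraries of LysM-Cre mice and 3 of mice with a myeloid knockout of Trem2, written TREM2-MKO or Trem2-MKO in the labels, and both groups had received anti-PD-1 antibody. LysM-Cre is a Cre recombinase under the lysozyme M promoter, which acts in macrophages, monocytes and neutrophils. The labels name no further alleles and no age. Whole tumour was used, so the chromatin of tumour, stromal and immune cells entered each library together, and fewer cells with the mark cannot be told apart from less of the mark per cell.

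Histone acetyltransferases add acetyl groups to lysines, deacetylases remove them, and bromodomain proteins bind the acetylated residue. Lysine 36 of histone H3 can carry either acetyl or methyl groups, so that its acetylation and its methylation exclude each other on the same residue. Methylation of this lysine by SETD2 and the NSD enzymes is found over transcribed gene bodies and between genes, whereas H3K36ac is known mainly from promoters of active genes. Proteins of the MLL family act mostly on lysine 4 of the same histone.

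The lists of LysM-Cre held 18262, 29970 and 19981 peaks, and those of Trem2-MKO held 29906, 6840 and 4638, always given here in the order of replicates 1, 2 and 3. Trem2-MKO replicates 2 and 3 stood apart, with the fewest peaks and the deepest summits. A summit is the position of highest fragment overlap in a peak. The median summit held 20 and 23 fragments in these libraries and 11 in each of the other 4, counts recovered from each peak's fold and p-value. The lists do not by themselves show the labelled tissue: of 23 loci of cell type markers, 14 held a peak in any library, where 71.8% of all protein-coding loci did. Among 8 hepatocyte markers, Alb, Apoa1, Apoa2, Fgb and Serpina1a had none in any list, while Ttr, Hnf4a and Cps1 held 18 together. LysM-Cre was above Trem2-MKO in all libraries at 1 of the 8, against 2.33% of all protein-coding loci. The reverse was seen at 1 of 2 endothelial markers, against 0.576% of all loci. Nothing is read from counts this small.

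The enzyme loci held 201 peaks over the 6 libraries, and 35 of the 40 loci held at least 1 (87.5%), where 71.8% of all protein-coding loci did. Most of the genes are long, with a median of 57.0 kb and a range from 5.40 kb (Hdac10) to 870.0 kb (Hdac9), and longer loci hold more peaks. Across the 40 loci, gene length and peak number had a Spearman rho of 0.71, and across all 21883 loci the value was 0.60. All points share the same 6 libraries. The 40 loci were therefore set beside the other protein-coding loci with a gene length within a factor of 1.25. The mean peak numbers of these loci of like length added up to 189 peaks over the 40 members, against the 201 observed, a ratio of 1.07. Of the 40 loci, 16 held more peaks than the median of their loci of like length, 17 fewer and 7 the same number. Peak number in this set was thus close to that of other loci of the same size.

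**Figure D1:**
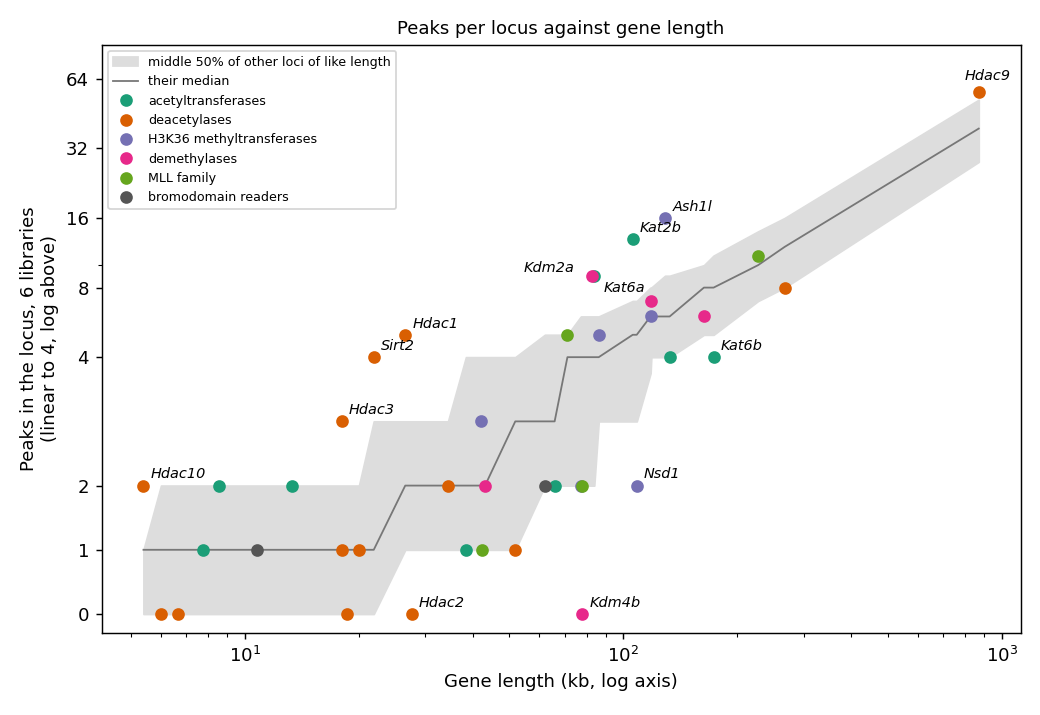
Peaks per locus over 6 libraries (vertical axis, linear to 4 and logarithmic above) against gene length in kb (logarithmic), with 1 point per gene coloured by subclass. The grey band holds the middle 50% of other protein-coding loci of like length and the line their median. The 9 named genes above the band are Ash1l, Kat2b, Kat6a, Kdm2a, Hdac1, Sirt2, Hdac3, Hdac10 and Hdac9, and the 4 below it are Kdm4b, Hdac2, Kat6b and Nsd1.

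Above the upper quartile of their loci of like length were 9 genes, namely Ash1l, Kat2b, Kat6a, Kdm2a, Hdac1, Sirt2, Hdac3, Hdac10 and Hdac9, and below the lower quartile were 4, namely Kdm4b, Hdac2, Kat6b and Nsd1. Peak numbers are small whole numbers with many ties, so a quartile does not set aside a fixed share of loci. Where the lower quartile was 0, as for Sirt3, Sirt6 and Sirt7, no locus could fall below it. The genes are therefore named as a description. Kdm4b was the longest gene without any peak: at 77.8 kb it had 0 in all 6 lists, where 94.3% of 1503 loci of like length had at least 1. The other 4 genes without a peak were Hdac2 (27.6 kb), Sirt3 (18.6 kb), Sirt6 (6.01 kb) and Sirt7 (6.64 kb). Absence from a peak list does not show absence of the mark, since most peaks were weak. Of the 35 loci with a peak, 10 had it in 1 library, 10 in 2, 6 in 3, 3 in 4, 5 in 5 and only Hdac9 in all 6.

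**Figure D2:**
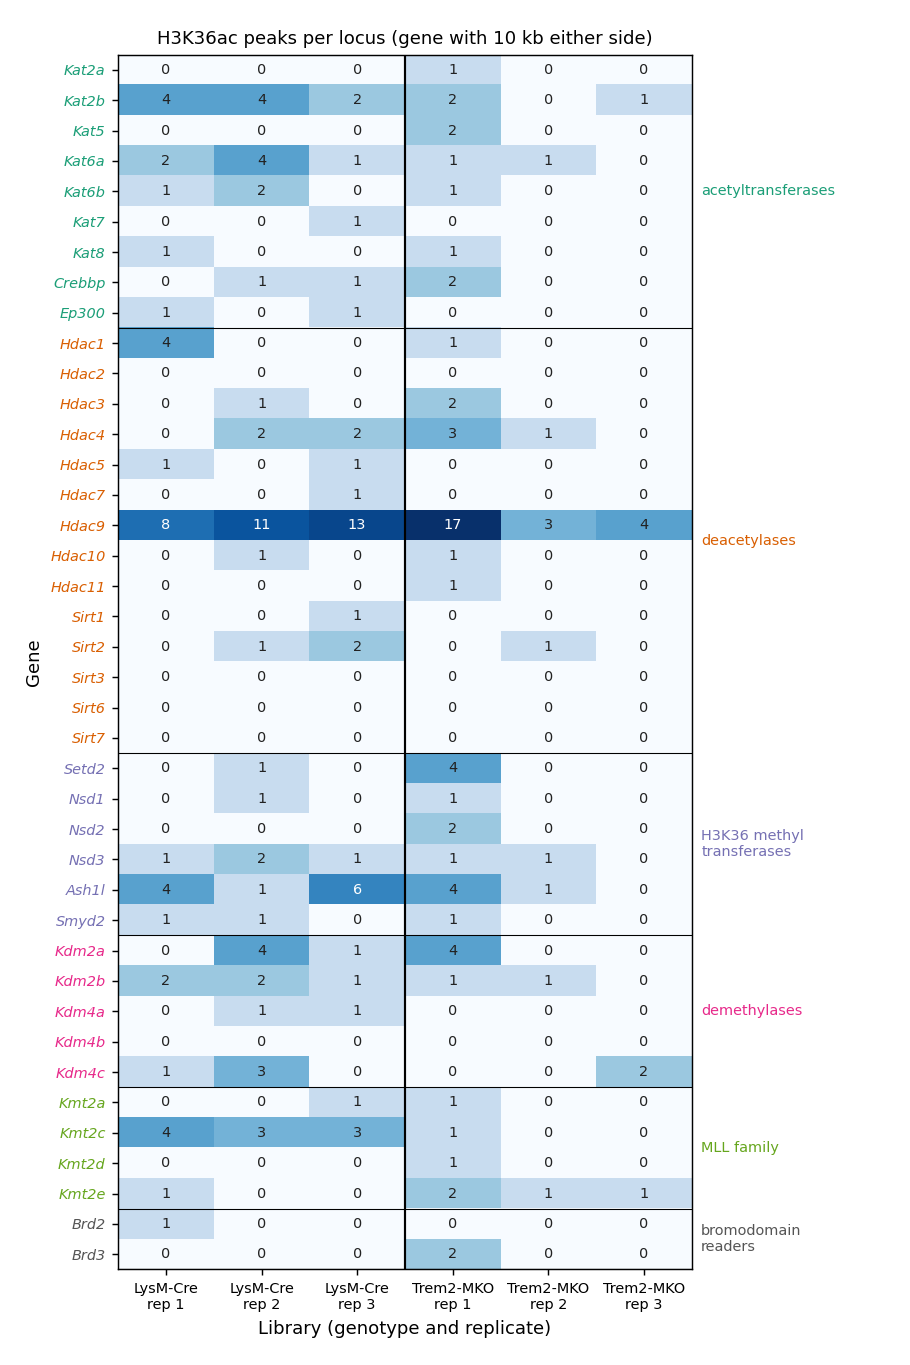
Number of H3K36ac peaks in each of the 40 loci (rows, grouped by subclass) in each library (columns, LysM-Cre left and Trem2-MKO right of the vertical line), with darker blue for more peaks. Hdac9 is the only locus with peaks in all 6 libraries, Kmt2c has 4, 3 and 3 peaks in LysM-Cre against 1, 0 and 0 in Trem2-MKO, and Kmt2e has 1, 0 and 0 against 2, 1 and 1.

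All 9 acetyltransferase loci held a peak, and Kat2b led them both in number and in density. Kat2b (chromosome 17, 53566774 to 53672721), which encodes PCAF, held 4, 4 and 2 peaks in LysM-Cre and 2, 0 and 1 in Trem2-MKO. These 13 peaks came to 10.3 per 100 kb of locus, against 4.22 per 100 kb over the other protein-coding loci of chromosome 17, and 3.40% of the 1236 loci of like length held as many or more. In peaks per 10000 of the library, the 3 LysM-Cre values (2.19, 1.33 and 1.00) and the Trem2-MKO values (0.67, 0 and 2.16) overlapped. One site, 4648 bp beyond the higher-coordinate end of the gene and inside Sgo1, had a peak in LysM-Cre replicates 1 and 2, at 3.51 and 2.43 times the background. Another, 12188 bp inside the same end, stood at 40 fragments over a background of 14.4 in LysM-Cre replicate 3 alone, and the median background of that library was 2.39.

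Kat6a (chromosome 8, 22859442 to 22943259), the gene of the MOZ acetyltransferase, held 9 peaks, and 6.57% of its 1447 loci of like length held as many or more. The libraries had 2, 4 and 1 in LysM-Cre and 1, 1 and 0 in Trem2-MKO. Its strongest peak, in LysM-Cre replicate 2, lay over the annotated pseudogene Gm18675 within the gene and had a fold of 4.22. The paralogue Kat6b (MORF) is longer, at 173 kb, yet held 4 peaks, and 87.3% of its loci of like length held as many or more. Its density was 2.07 peaks per 100 kb against 2.67 over chromosome 14, and that of Kat6a was 8.67 against 5.20 over chromosome 8.

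The 7 remaining acetyltransferase loci held 1 to 4 peaks each. Crebbp and Ep300 encode CBP and p300, the paired co-activators that acetylate lysine 27 of histone H3. Crebbp had 0, 1 and 1 peaks in LysM-Cre and 2, 0 and 0 in Trem2-MKO, and Ep300 had 1, 0 and 1 against 0, 0 and 0. At Crebbp, the LysM-Cre peaks lay in the flanks, over other genes, and the Trem2-MKO peaks lay inside the gene. Kat2a, which encodes GCN5, had its only peak in Trem2-MKO replicate 1, 7993 bp outside the gene and over Dhx58. GCN5 is known to acetylate lysine 36 of histone H3. Kat5 (TIP60) had 2 peaks in that same library and none elsewhere, Kat7 (HBO1) had 1 in LysM-Cre replicate 3, and Kat8 (MOF) had 1 in each genotype. All peaks of Kat2a, Kat5, Kat7 and Kat8 lay in the flanks, outside the genes.

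Among the 14 deacetylase loci, Hdac9 alone carried 56 of the 83 peaks. Hdac9 (chromosome 12, 34047580 to 34917095) encodes a class IIa enzyme that shuttles between nucleus and cytoplasm. It held 8, 11 and 13 peaks in LysM-Cre and 17, 3 and 4 in Trem2-MKO. These were 27.9% of all peaks of the 40 loci, in 20.4% of their summed length. Per 10000 peaks of the library the values were 4.38, 3.67 and 6.51 in LysM-Cre and 5.68, 4.39 and 8.62 in Trem2-MKO (means 4.85 ± 1.48 and 6.23 ± 2.17, SD, n = 3 each), so the genotypes overlapped. Loci of like length, 77 in number, had a median of 39 peaks and an upper quartile of 52. No position in Hdac9 had a peak in more than 1 library, and 4 of the 56 peaks had a q-value of 0.01 or less.

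Hdac1 and Hdac3, the catalytic subunits of different nuclear co-repressor complexes, carried peaks at their gene ends. Hdac1 (chromosome 4, 129516104 to 129542646) held 4 peaks in LysM-Cre replicate 1, all inside the gene, and 1 in Trem2-MKO replicate 1, which spanned the higher-coordinate end at 3.40 times the background with 22 fragments at the summit. Its density of 10.7 peaks per 100 kb stood against 2.76 over chromosome 4. Hdac3 (chromosome 18, 37936971 to 37955015) held 1 peak in LysM-Cre replicate 2 and 2 in Trem2-MKO replicate 1. Both libraries marked the higher-coordinate end of the gene (37954752 to 37955118), with 18 fragments at each summit over backgrounds of 4.11 and 3.71 and folds of 3.72 and 4.03. The summits lay 89 bp apart. This region also overlaps the neighbouring gene Rell2.

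The other deacetylases had few peaks. Hdac4, a class IIa gene of 267 kb, held 8 where its loci of like length had a median of 12.0. Sirt2, which encodes a mainly cytoplasmic sirtuin, held 0, 1 and 2 in LysM-Cre and 0, 1 and 0 in Trem2-MKO, and 12.7% of its loci of like length held as many or more. All LysM-Cre peaks of Sirt2 lay in the flank, over Rinl, and the Trem2-MKO peak lay inside the gene. Hdac10, a polyamine deacetylase gene, held 1 peak in each genotype, both in the flanks. Hdac5 had 2 peaks, both in LysM-Cre, while Hdac7, Hdac11 and Sirt1 had 1 each, that of Sirt1 in the flank. The sirtuin loci other than Sirt2 thus held 1 peak among them, at Sirt1.

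All 6 loci of H3K36 methyltransferases held a peak, and Ash1l held 16 of their 34. Ash1l (chromosome 3, 88950414 to 89079375) encodes a trithorax-group enzyme that places dimethylation on lysine 36. It held 4, 1 and 6 peaks in LysM-Cre and 4, 1 and 0 in Trem2-MKO, and 2.29% of its 1003 loci of like length held as many or more. Its density was 10.7 peaks per 100 kb, but chromosome 3 as a whole had the dense value of 7.78 per 100 kb over other protein-coding loci. Per 10000 peaks the LysM-Cre values were 2.19, 0.334 and 3.00 and the Trem2-MKO values 1.34, 1.46 and 0, which overlap.

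Ash1l also held 3 of the 9 positions in the set that were marked in more than 1 library, all 3 in LysM-Cre libraries alone, as were 36.6% of the 4631 such regions of the whole genome, where 2 of the Trem2-MKO lists are short. The first (88941601 to 88942947) lay 7467 bp outside the lower-coordinate end, over Dap3, with folds of 2.85 and 2.58 in LysM-Cre replicates 1 and 3. The second (88973132 to 88973723) lay 23.0 kb inside that end, with folds of 2.89 and 2.32 in the same 2 libraries and a local background of 1.44 and 1.93 times the library median. The third (89008121 to 89009054) joined peaks of LysM-Cre replicates 2 and 3 through an overlap of 28 bp.

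Setd2, the gene of the main enzyme of H3K36 trimethylation, held 5 peaks, 4 of them in Trem2-MKO replicate 1 and 1 in LysM-Cre replicate 2. The NSD genes, whose enzymes place mono- and dimethylation, held 2 (Nsd1), 2 (Nsd2) and 6 (Nsd3). Nsd1 is 109 kb long, and 90.3% of its loci of like length held as many or more. Both Nsd2 peaks were in Trem2-MKO replicate 1, whereas Nsd3 had 1, 2 and 1 in LysM-Cre and 1, 1 and 0 in Trem2-MKO. Smyd2, which encodes a methyltransferase of histones and other proteins, had 3 peaks in 3 libraries. In LysM-Cre replicate 2 it was marked at its lower-coordinate end, which is the far end from its start.

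Of the 5 demethylase loci, 4 held peaks, 24 in all. Kdm2a and Kdm2b encode demethylases of dimethylated lysine 36 that bind unmethylated CpG through a zinc finger. Kdm2a (chromosome 19, 4316144 to 4398721) led in number and density, with 0, 4 and 1 peaks in LysM-Cre and 4, 0 and 0 in Trem2-MKO, and 6.40% of its loci of like length held as many or more. A region 7506 bp beyond its higher-coordinate end joined a peak of LysM-Cre replicate 2 and one of Trem2-MKO replicate 1 through 18 bp. Kdm4c, which encodes a demethylase of trimethylated lysines 9 and 36, had 1, 3 and 0 peaks in LysM-Cre and 0, 0 and 2 in Trem2-MKO. Kdm4a had 2 peaks in LysM-Cre alone.

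Among the 29 members with an annotated start window, Kdm2b (chromosome 5, 122870664 to 122989270, minus strand) was the only one with a peak over such a window. A start window ran from 250 bases before to 50 after a transcription start. The other 11 members were matched to no window and could not be assessed. Kdm2b held 2, 2 and 1 peaks in LysM-Cre and 1, 1 and 0 in Trem2-MKO. The table has 4 start windows for the gene, and 2 neighbouring ones were marked, each in a different library. In Trem2-MKO replicate 2, a peak at 122988192 to 122988691 had its summit 165 bp downstream of a start, with a fold of 2.10. The summit held 36 fragments over a background of 15.0, where the library median was 5.92, and the −log10 q was 0.932. In LysM-Cre replicate 2, a peak at 122989275 to 122989618 had its summit at −306 bp from the other start, with a fold of 3.76. That summit held 14 fragments over a background of 2.99, and the −log10 q was 2.22. The second peak also covered the start window of A930024E05Rik, a lncRNA gene. Both windows are shown from RefSeq (GRCm38.p6, the assembly of mm10), 5′ to 3′ on the minus strand, because they are the marked start windows of the set. Capitals give the bases that lie inside the peak.
Kdm2b start window at chr5:122988458-122988757, peak in Trem2-MKO replicate 2: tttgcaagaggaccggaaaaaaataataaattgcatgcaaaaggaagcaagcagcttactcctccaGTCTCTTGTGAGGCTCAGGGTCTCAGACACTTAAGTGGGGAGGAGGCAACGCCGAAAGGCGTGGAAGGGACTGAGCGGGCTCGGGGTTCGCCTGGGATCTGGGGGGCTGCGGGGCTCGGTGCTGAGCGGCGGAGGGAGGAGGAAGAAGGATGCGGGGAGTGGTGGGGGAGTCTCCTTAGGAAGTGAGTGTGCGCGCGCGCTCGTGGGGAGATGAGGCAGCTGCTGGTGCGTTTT
Kdm2b start window at chr5:122989050-122989349, peak in LysM-Cre replicate 2: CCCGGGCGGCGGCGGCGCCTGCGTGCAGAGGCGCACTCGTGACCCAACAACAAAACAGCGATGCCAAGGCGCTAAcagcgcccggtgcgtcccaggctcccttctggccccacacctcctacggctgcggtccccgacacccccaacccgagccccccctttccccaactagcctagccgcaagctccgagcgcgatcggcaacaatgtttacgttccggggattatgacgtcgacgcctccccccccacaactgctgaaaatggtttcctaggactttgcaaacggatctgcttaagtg
The peak covered 234 of the 300 bases of the first window and 75 of the second, where it ended inside the upstream part. The windows held 18 and 28 CpG dinucleotides. The second contained the GC box GGGCGG on either strand and the first did not.

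Start windows of the set as a whole were rich in CpG. The table gave 45 windows for 29 of the 40 genes, with a median of 24.0 CpG per window, against 13.0 in 21262 windows of protein-coding genes. GGGCGG, searched on both strands, was found in 64.4% of the 45 windows and in 46.2% of those of protein-coding genes. CCAAT was found in 28.9% and 38.2%, and TATAAA in 2.22% and 12.6%. In these genes, 4 peaks, in Kdm2b, Kat2b and Hdac5, lay within 1 kb of a start. No share over the starts of other genes is set beside this count, so it is not read as few or many. The Kat2b peak was near its second listed start, at 2.11 times the background, and the Hdac5 peak lay 934 bp from its start. Hdac1, Hdac3, Hdac10, Kat6a, Kdm2a, Kdm4b, Ash1l, Nsd1, Nsd2, Nsd3 and Kmt2e were matched by name to no window.

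The MLL family held the 2 most recurrent positions of the set, in opposite genotypes. Kmt2e (chromosome 5, 23433036 to 23504235) encodes MLL5, which is regarded as lacking methyltransferase activity of its own. A region near its lower-coordinate end (23434145 to 23434671), 1.37 kb inside the gene, had a peak in all 3 Trem2-MKO libraries and in none of LysM-Cre. The summits held 28, 45 and 73 fragments in Trem2-MKO over backgrounds of 6.36, 15.0 and 14.0, and the folds were 3.94, 2.60 and 3.95. In replicates 2 and 3 the fold uses the fragment count multiplied by 0.903 and 0.798, the scale at which those lists were made. The 3 summits lay within 49 bp of each other. The region also overlaps the higher-coordinate end of the lncRNA gene 5031425E22Rik.

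Kmt2c (chromosome 5, 25271795 to 25498855, minus strand) encodes MLL3, which places monomethylation on lysine 4 of histone H3 at enhancers. A region 10.8 kb downstream of its start (25487747 to 25488171) had a peak in all 3 LysM-Cre libraries and in none of Trem2-MKO. The lists of Trem2-MKO replicates 2 and 3 are short (6840 and 4638 peaks), so a missing peak there says little. The summits held 18, 30 and 22 fragments in LysM-Cre over backgrounds of 5.82, 5.97 and 6.33, with folds of 2.78, 4.44 and 3.14, and lay within 69 bp of each other. Another region in the middle of the gene (25377723 to 25378356) had peaks in LysM-Cre replicates 2 and 3, with 16 and 14 fragments and folds of 4.26 and 2.98. In Trem2-MKO the only peak of the locus, in replicate 1, lay at 25375426 to 25375765, close to that region but not touching it.

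**Figure D3:**
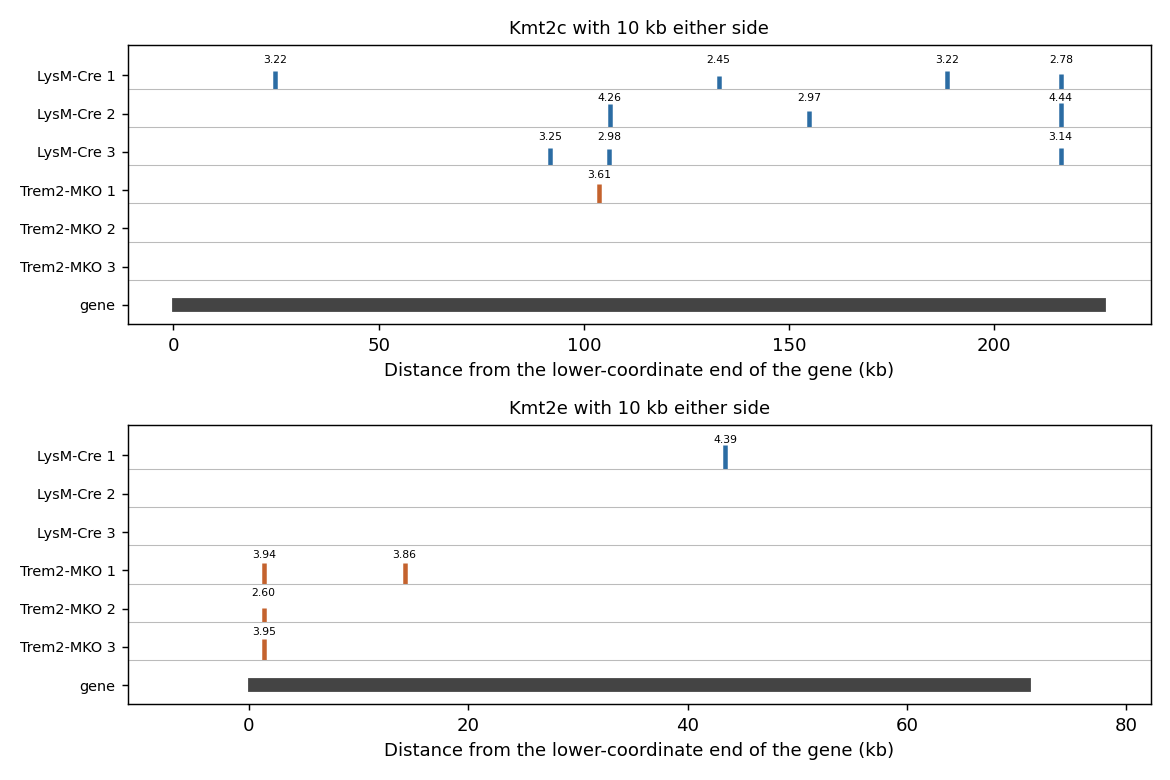
Peaks of each library along Kmt2c (top) and Kmt2e (bottom), with distance in kb from the lower-coordinate end of the gene on the horizontal axis, the gene as a dark bar, and 1 vertical line per peak at its summit, whose height and number give the fold over background (blue LysM-Cre, orange Trem2-MKO). The 3 LysM-Cre libraries line up 216 kb along Kmt2c, with folds of 2.78, 4.44 and 3.14, and the 3 Trem2-MKO libraries line up 1.4 kb along Kmt2e, with folds of 3.94, 2.60 and 3.95.

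Counted over whole loci, these were also the only members whose genotypes did not overlap. Kmt2c held 4, 3 and 3 peaks in LysM-Cre and 1, 0 and 0 in Trem2-MKO, which is 1.56 ± 0.597 and 0.111 ± 0.193 peaks per 10000 of the library (SD, n = 3 each, exact two-sided permutation p = 0.1). Kmt2e held 1, 0 and 0 in LysM-Cre and 2, 1 and 1 in Trem2-MKO, or 0.183 ± 0.316 and 1.43 ± 0.744 per 10000 (SD, n = 3 each, exact two-sided permutation p = 0.1). With 3 libraries against 3 this test cannot go below 0.1, and adjusted over all 21883 loci by Benjamini-Hochberg both values were 1.0. No locus of any kind was under an unadjusted p of 0.05, which this test cannot reach, and no other test was run. Among all protein-coding loci, 2.33% had every LysM-Cre library above every Trem2-MKO library, and 0.576% the reverse. Among loci of like length these shares were 5.83% of 515 with LysM-Cre above and 4.66% with Trem2-MKO above at the length of Kmt2c. At the length of Kmt2e they were 4.87% of 1602 with LysM-Cre above and 0.936% with Trem2-MKO above. A count of 1 locus in 40 in each direction is too small to be read against this background.

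Both calls have limits that lie in the lists, of which those of Trem2-MKO replicates 2 and 3 are short. With peaks of a −log10 p of at least 5 alone, Kmt2c was no longer separated and Kmt2e was. With raw peak counts in place of peaks per 10000, Kmt2e was no longer separated, since LysM-Cre replicate 1 and Trem2-MKO replicates 2 and 3 each held 1 peak, and neither gene was when each list was trimmed to its 4638 smallest p-values. The local background at the recurrent sites was high as well: 2.44, 2.53 and 2.36 times the library median at Kmt2e and 2.41, 2.21 and 2.65 times at Kmt2c, and the part of this in the result was not tested.

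The other MLL genes showed little. Kmt2a, the leukaemia gene after which the family is named, had 1 peak in LysM-Cre replicate 3 and 1 in Trem2-MKO replicate 1. Kmt2d, the close paralogue of Kmt2c, had 1 peak, in Trem2-MKO replicate 1, where 85.9% of its loci of like length had at least 1.

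The bromodomain readers Brd2 and Brd3 encode BET proteins, which bind acetylated histones and recruit the transcription machinery. Brd2 (chromosome 17, 34112019 to 34122814) held 1 peak, 5826 bp outside its lower-coordinate end and inside no annotated gene. It was in LysM-Cre replicate 1, with 18 fragments over a background of 2.42. Its fold of 5.56 was the highest of the 201 peaks. Brd3 held 2 peaks, both in Trem2-MKO replicate 1, at 3.10 and 3.11 times the background.

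Few positions were shared between libraries, in the enzyme loci as elsewhere. The 201 peaks formed 190 regions, of which 181 were called in 1 library, 7 in 2 and 2 in 3. Regions with peaks of 2 or more libraries were thus 9 of 190 (4.74%), where 4.26% of 51720 regions in protein-coding loci had them. By gene they were 3 at Ash1l, 2 at Kmt2c and 1 each at Kmt2e, Kat2b, Hdac3 and Kdm2a. By genotype, 6 were in LysM-Cre alone, 1 in Trem2-MKO alone and 2, at Hdac3 and Kdm2a, in both (66.7%, 11.1% and 22.2%). Over the 4631 such regions of the whole genome the shares were 36.6%, 13.0% and 50.4%, and with 9 regions no difference is read from this. Regions with 3 libraries of LysM-Cre and 0 of Trem2-MKO were 0.0541% of all regions in protein-coding loci, and the reverse 0.0232%. Requiring a −log10 p of 5 or more left 3 of the 9, at Kmt2e, Kmt2c and Hdac3.

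Peaks lay in gene bodies and flanks in proportion to length. Inside the genes were 164 of the 201 peaks (81.6%), and gene bodies made up 81.6% of the summed length of the loci. For the 29 genes whose strand is known, the gene was divided from its start into 3 equal stretches, which held 39, 37 and 39 summits (33.9%, 32.2% and 33.9%). Over all protein-coding genes with a known strand the shares were 33.1%, 33.6% and 33.3%. Within 1 kb of either gene end lay 11 peaks (5.47%), against 6.80% for all protein-coding loci. These 11 peaks belonged to Hdac1, Hdac3, Hdac5, Kdm2b, Kat6a, Sirt1, Sirt2 and Smyd2. Gene bodies made up 70.6% of the length of all protein-coding loci, so end windows take up less of the longer member loci. The shares at gene ends are therefore not read as few or many. Of the 37 peaks in the flanks, 21 lay inside another gene. Examples are the Crebbp flank, where a peak of LysM-Cre replicate 3 covered the start window of Trap1, and the Kat8 flank, where one of Trem2-MKO replicate 1 covered that of Bckdk.

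The genotypes placed similar shares of their peaks in the 40 loci. The LysM-Cre libraries had 37, 46 and 40 peaks there (0.203%, 0.153% and 0.200% of the library). Those of Trem2-MKO had 60, 10 and 8 (0.201%, 0.146% and 0.172%). The means were 0.185 ± 0.0277% and 0.173 ± 0.0272% (SD, n = 3 each), a difference of −0.0123 percentage points that was smaller than the spread in either genotype. Its sign turned when lists were trimmed to equal length (0.0144) and without Trem2-MKO replicate 2 (0.00113), and with peaks of a −log10 p of at least 5 it was 0.0535. Without Hdac9 the means were 0.137 ± 0.0211% and 0.111 ± 0.0297% (SD, n = 3 each), a difference of −0.0261 that was smaller than the SD in Trem2-MKO and larger than that in LysM-Cre. Peaks were found in 29 of the 40 loci in LysM-Cre and in 28 in Trem2-MKO, and 22 loci had peaks in both genotypes. By library, 16, 19 and 18 loci had a peak in LysM-Cre and 26, 8 and 4 in Trem2-MKO. Of all protein-coding loci, 59.7% had a peak in LysM-Cre and 47.5% in Trem2-MKO. These shares are over loci of any length and do not allow for the length of the member genes.

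By subclass the genotypes overlapped in every case. The acetyltransferase loci took 0.0387 ± 0.00978% of LysM-Cre peaks and 0.0232 ± 0.00952% of Trem2-MKO peaks. The deacetylase loci took 0.0749 ± 0.0236% and 0.0810 ± 0.00695%. For the H3K36 methyltransferases the values were 0.0293 ± 0.00811% and 0.0242 ± 0.0222%, with 0 peaks in Trem2-MKO replicate 3. For the demethylases they were 0.0216 ± 0.0102% and 0.0248 ± 0.0159%, and for the MLL family 0.0191 ± 0.00872% and 0.0176 ± 0.00356% (SD, n = 3 each throughout). In the MLL family the nearly equal sums hold the opposite patterns of Kmt2c and Kmt2e. Against loci of like length, the peak numbers of the subclasses ranged from 0.636 times (bromodomain readers, 3 peaks) to 1.15 times (H3K36 methyltransferases).

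**Figure D4:**
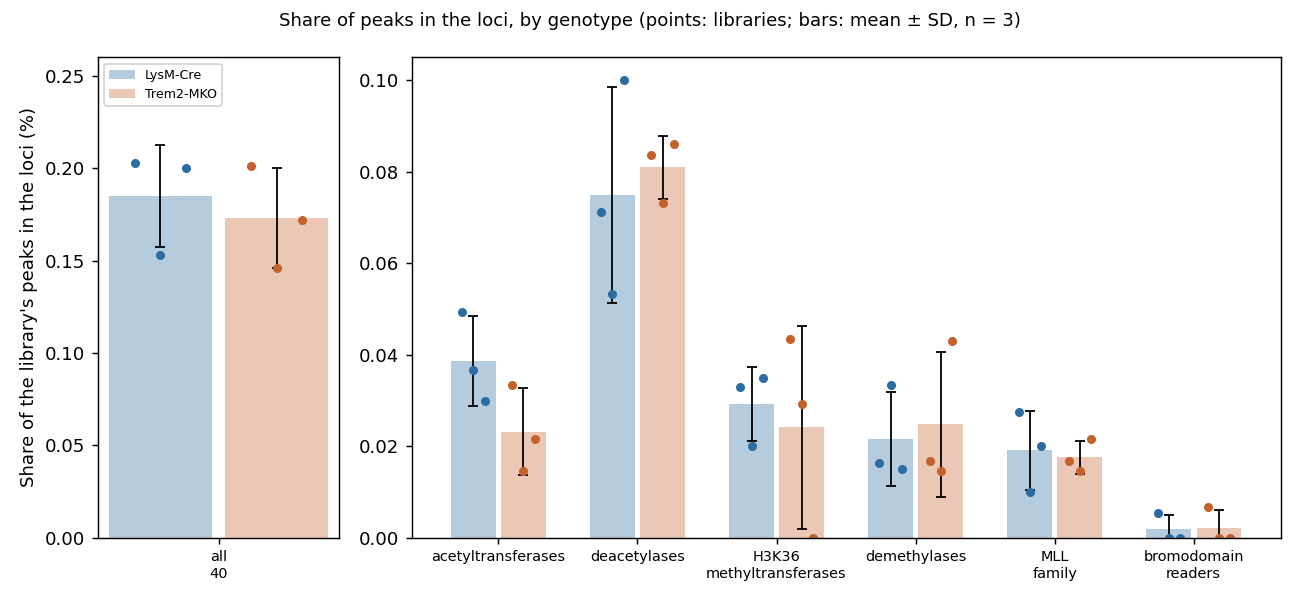
Share of each library's peaks that lie in the loci (vertical axis, %), for all 40 genes (left) and by subclass (right), with points for libraries, bars for the mean and error bars for the SD of 3 libraries per genotype. The points of LysM-Cre (blue) and Trem2-MKO (orange) overlap in all subclasses, and over all 40 genes the means are 0.185% and 0.173%.

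Peaks in the loci were weak, like those elsewhere. Their fold over background ran from 1.82 to 5.56 with a median of 3.10, and 36 of the 201 (17.9%) had a q-value of 0.01 or less, against 15.9% of all 109597 peaks. The 10 with the smallest p-values, ranked over lists of unlike depth, lay in 8 loci, with 5 peaks in each genotype. First by p-value were Kmt2e in Trem2-MKO replicate 3, Kmt2c in LysM-Cre replicate 2, Brd2 in LysM-Cre replicate 1 and Kmt2e in Trem2-MKO replicate 1, with −log10 p of 18.5, 12.4, 10.8 and 10.3. They were followed by peaks of Kat6a, Kat2b, Hdac3, Crebbp, Hdac9 and Kmt2c with values from 8.48 to 7.69. A local background of at least 2 times the library median lay under 13 of the 201 peaks (6.47%), against 1.86% of all peaks. Of these 13, 6 belonged to the 2 recurrent regions of Kmt2e and Kmt2c.

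**Figure D5:**
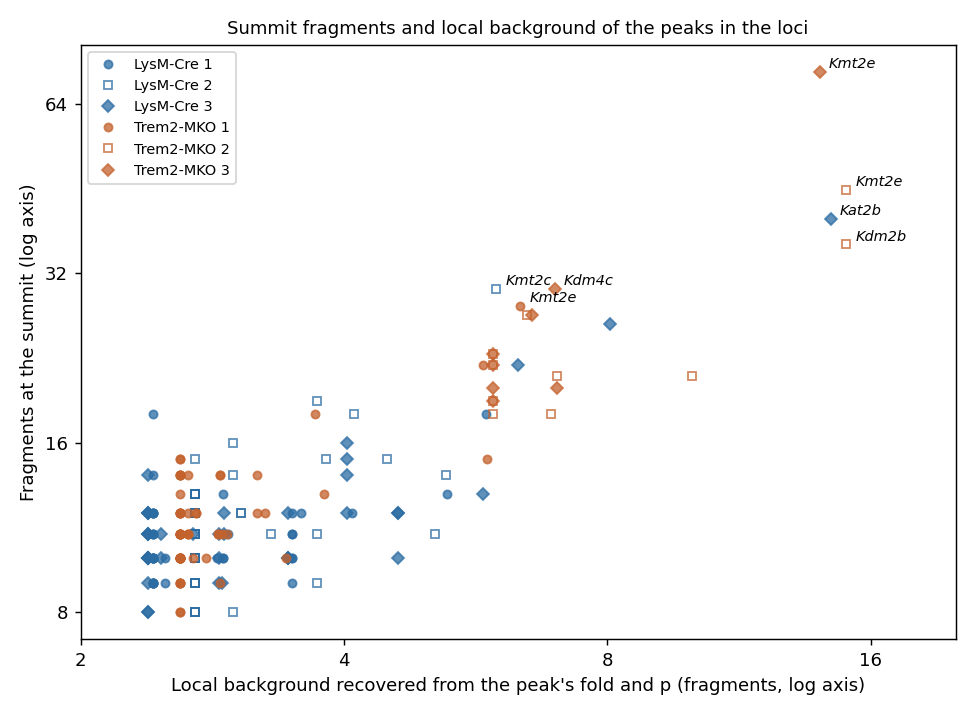
Fragments at the summit (vertical axis, logarithmic) against the local background (horizontal axis, logarithmic, on the scale of the authors' pileup) for the 201 peaks, with 1 symbol per library. The peaks of Trem2-MKO replicates 2 and 3 lie higher and further right (medians of 21.5 and 22.5 fragments, against 10 or 11 elsewhere). Those of the recurrent Kmt2e region (28, 45 and 73 fragments) stand at high fragment number and high background together. Single peaks of Kat2b and Kdm2b stand there as well, and the other Kmt2e peaks do not.

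Of 25 further genes of these pathways, among them the acetyltransferase gene Hat1, the MLL gene Kmt2b and the H3K36me3 reader genes Psip1 and Zmynd11, 21 loci held a peak, where 71.8% of all protein-coding loci did, and 4 (Hdac6, Phf1, Psip1 and Setmar) held none. They had 74 peaks, or 4.32 per 100 kb, against 4.61 per 100 kb in the 40 loci. LysM-Cre was above Trem2-MKO in all libraries at 1 of the 25 loci (2.33% of all loci), and the reverse was seen at 0 (0.576% of all loci). These loci were not set beside loci of like length.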

How the data were processed

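H3K36ac was profiled by ChIP-seq in liver tumour, with 3 libraries of LysM-Cre and 3 of Trem2-MKO mice and 6 inputs that were not analysed here. Per the labels' protocols, DNA was amplified over the whole genome after precipitation, a step that can copy fragments unevenly. Per the submitters' processing notes, Trimmomatic, Bowtie2, SAMtools, Picard, MACS2 and deepTools were used with mm10, with no version stated. According to the deposited lists' names, duplicates were removed and each library's peaks were called against a pooled control at a p-value limit of 0.01. Each deposited peak has a score, a fold ratio over background, its p- and q-value as −log10, and start, end and summit positions. These are the authors' values and were used within a list only.

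From the authors' values, the summit fragments and the local background were recovered as the whole count that returns both the fold, (pileup + 1)/(background + 1), and the Poisson p-value. All peaks were solved within 0.005, and a single count fitted at least 98.7% of the peaks of each library. The computation was tested on simulated data. Gene extents came from RefSeq GRCm38.p6. The start windows give strand for 29 of the 40 genes, and exons were not used here. Peaks were counted per locus, and scaled to 10000 library peaks. The genotypes' values per locus went into an exact permutation test, two-sided, over the 20 assignments of libraries, with Benjamini-Hochberg adjustment over 21883 loci. Regions are peaks of the 6 lists merged where they overlap by 1 bp or more. The named genes are those with a region in 2 or more libraries, separated genotypes, the most peaks or highest density in a subclass, 1 of the 10 smallest p-values, a peak within 1 kb of a start or gene end, or no peak. Members and lists were chosen with earlier results of these data known. The labels call the libraries replicates and the series' design text gives n = 3 for each genotype, and where these were not separate animals, p-values measure only the spread between these samples. Alternatives were a stricter p-value, lists of equal length, flanks of 0 and 5 kb, summits, a 50% overlap, raw counts, pairs by replicate number and each library left out. Analyses used Python 3.11.15, numpy 2.4.6, pandas 2.3.3 and scipy 1.17.1.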

Additional observations from a re-analysis of the deposited data

How the results depend on the processing

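The count of 35 loci with a peak was 22 with each list trimmed to its 4638 smallest p-values, and 29 to 35 with each library left out. It was 28 without flanks and 30 with flanks of 5 kb, since some loci had peaks in their flanks only. The difference in share of −0.0123 percentage points became 0.0535 for peaks of −log10 p from 5 up and ran from −0.0283 to 0.00113 with each library left out. The 1 locus with LysM-Cre above (Kmt2c) became 0 for peaks of −log10 p from 5 up and 0 with trimmed lists, and ran from 1 to 4 with each library left out. The highest counts came without LysM-Cre replicate 2 and without Trem2-MKO replicate 2, with 4 each. The 1 locus with Trem2-MKO above (Kmt2e) became 0 with trimmed lists and 0 with raw counts, and ran from 1 to 2 with each library left out, where Hdac9 joined without LysM-Cre replicate 3 and Hdac4 without Trem2-MKO replicate 3. No share over all loci is set beside these counts of separated loci, so they are not read as a result about the members. The 9 regions with peaks of 2 or more libraries became 3 for peaks of −log10 p from 5 up, 3 with trimmed lists and 4 to 9 with each library left out. The low values of 4 and 5 came without LysM-Cre replicates 2 and 3. The cause of these changes was not tested. An alternative chosen after seeing the data left out both short Trem2-MKO lists, with 1 library left in that genotype. It gave 35 loci, a difference of 0.0152, 5 and 14 separated loci and 8 regions.

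For same-numbered libraries, the correlations of their deviations from the genotype means over all loci were −0.0326, −0.0465 and −0.0944. Pairs with other numbers ran from −0.0317 to 0.0683. Loci held a median of 1 peak over all libraries, so these values cannot tell whether same-numbered libraries shared more than a number. With the replicate number as a block, 1 locus (Kmt2c) had LysM-Cre higher in 3 of 3 pairs and 2 (Kmt2e and Hdac9) had Trem2-MKO higher. These counts too have no share over all loci beside them. Depth limits all of these: summits held 8 to 73 fragments, and at this depth a weak mark cannot be told apart from none.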
